A study of Mus musculus with 16 samples.

Results

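Potassium channel genes were taken as the rows of the processed RNA-Seq table whose symbol begins with Kcn, the stem shared by mouse potassium channel subunits, and whose mean over the 16 mice was at least 1. Levels are log2(1 + FPKM), where FPKM is the fragment count scaled to transcript length and to library size, so levels can be compared between genes of different length. Not every Kcn gene was considered, and of those that were, among the 18167 genes of the table, 67 met both conditions. A further 23 of the 90 Kcn genes considered had a mean below 1. Of the 67, 65 encode channel subunits and 2, *Kcnmb4os1* and *Kcnmb4os2*, are antisense transcripts of the *Kcnmb4* locus. Just inside the limit were *Kcnh8* (mean 1.03) and *Kcnu1* (mean 1.08), and just outside it were *Kcnk5* and *Kcnb2*, each with a mean of 0.90. *Kcnk6* (mean 1.15) was above the limit only through the MO mice, since its mean over the 11 other mice was 0.89.

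Spinal cords of 16 transgenic mice were compared. The mutant line, Tg(Prnp-PFN1*G118V)838Kiaei/J on C57BL/6N, carries a human profilin1 gene in which G118V is the only mutation named, and the wild-type line, Tg(Prnp-PFN1)850Kiaei/J on the same background, carries the normal human gene. Both transgenes (in the MoPrP.Xho vector) are driven by the promoter of the mouse prion protein gene, which is active in neurons and in other cells, so mice of all 4 groups carry a human profilin1 gene beside their own. The 3 wild-type young (WY) and 3 mutant young (MY) mice were 50 days old, the 5 wild-type old (WO) mice were 190 to 294 days old, and the 5 mutant old (MO) mice, at end stage, were 175 to 245 days old. All mice are labelled male. The young mice and 3 mice of each old group belong to library batch 1, and WO4, WO5, MO4 and MO5 to batch 2. WO4 and WO5 are the WO mice of 294 days, so age and batch cannot be told apart within WO.

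Potassium channels set the resting potential, end the action potential and limit repetitive firing. Voltage-gated channels are tetramers of pore-forming subunits, some of which combine with electrically silent modulatory subunits or with cytoplasmic and membrane-spanning auxiliary subunits. Inward rectifiers and tandem pore domain channels carry the background current at rest, and in glia they help to take up the potassium that active neurons release. In spinal motor neurons and interneurons, fast delayed rectifiers allow brief spikes at high rates, and low-threshold channels beside the nodes of Ranvier steady conduction along myelinated axons.

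Before the results, MO5, WY1 and WO4 need naming. MO5 went against its label, since *Xist*, which is transcribed from the inactive X chromosome of females, was at 3.21 in MO5 and between -0.36 and 0.37 in the 15 other mice. The Y-linked gene *Ddx3y* was at 1.95 in MO5 and between 4.06 and 4.74 in the others. WY1 had the lowest level of the 3 WY mice for 45 of the 67 potassium channel genes (67.2%), against 38.1% of all genes. *Kcnk9* was at 2.88 in WY1 and at 4.66 and 4.52 in WY2 and WY3. *Kcng1* was at 0.70 in WY1 and at 1.54 and 1.57 in the others. In WO4 the oligodendrocyte gene *Mbp* was far below its level in the other WO mice, as given with the cell type markers. For potassium channel genes, calls in WO vs. MO and MY vs. MO that change without MO5 are given both ways. So are interaction calls past both thresholds that change without WY1.

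The tissue label fits its defining markers, as the neuronal gene *Snap25* (mean 10.43), the astrocyte gene *Gfap* (10.17) and the motor neuron genes *Chat* (3.61) and *Slc5a7* (4.62) were present in every group. The sensory ganglion channels *Scn10a* and *Scn11a* had means of 0.01 and 0.02, and the skeletal muscle genes *Ckm* and *Myh4* had means of 0.07 and 0.01.

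The most abundant of the 67 genes was *Kcnab2* (mean 7.21), which encodes a cytoplasmic subunit of the Shaker-type channels. Other abundant genes were *Kcna1* (6.14), which encodes an axonal low-threshold channel, and the fast delayed rectifier gene *Kcnc1* (5.90). *Kcnab1* (5.80), the tandem pore gene *Kcnk1* (5.77) and *Kcna2* (5.64) had levels that overlapped between mice. Of the 67 genes, 10 had a mean level of at least 5, 23 a mean from 3 to under 5, and 34 a mean under 3.

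End-stage mutant mice were first compared with wild-type profilin1 mice of overlapping age (WO vs. MO). A gene passed both thresholds if limma, fitted over all 18167 genes, gave it an FDR of at most 0.05 and its fold change was 1.5 or more in either direction. A count with the FDR alone is given beside it, and "rose" and "fell" below refer to that FDR. Fold changes are differences of log2(1 + FPKM), which understate the change of genes with low levels. Of the 67 genes, 5 passed both thresholds as lower in MO, against 0.517% of all genes, and 2 as higher, against 4.08%. Among the lower genes were *Kcnk9*, *Kcnj14*, *Kcng4* and *Kcng1*, and the higher genes were *Kcne1l* and *Kcnk6*. With the FDR alone, 30 fell and 7 rose, against 12.9% and 15% of all genes. As shares of the 67, that is 44.8% and 10.4%. Among the 13530 genes with a mean of at least 1, the same filter as for the 67, 16% fell and 15.8% rose. Of those 13530, 91 passed both thresholds as lower and 600 as higher. Over all 90 Kcn genes considered, 31 fell and 9 rose, and the same 7 genes passed both thresholds.

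The median log2 fold change of the 67 genes was -0.13, and that of all genes was 0.00035. It was -0.15 among the batch 1 mice alone and -0.14 among the batch 2 mice alone, and all 37 genes with an FDR of at most 0.05 had the same sign in both batches, which a call on all 10 mice partly fixes. Of the 10 genes with a mean level of at least 5, 9 fell, the exception being *Kcnk1*, whereas 20.7% of all genes at that level fell. Of the 34 genes with a mean under 3, 10 fell and 5 rose (29.4% and 14.7%), against 12.7% and 18.5% of all genes at that level. In 11 of the 67 genes all 5 MO mice lay below the 11 other mice, a background of 2.66%, and in *Kcns1* and *Kcnk6* all 5 lay above them, a background of 7.58%. Among the 13530 genes with a mean of at least 1, these numbers were 466 and 1030. With the batch 1 mice alone 23 genes had an FDR of at most 0.05 (21 lower, 2 higher), with the 4 batch 2 mice alone 13 (9 lower, 4 higher), and in limma's test against a fold of 1.2 10 did (8 lower, 2 higher). RNA came from whole spinal cord, so fewer cells of a type and less RNA per cell cannot be told apart in any of these values.

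**Figure D1:**
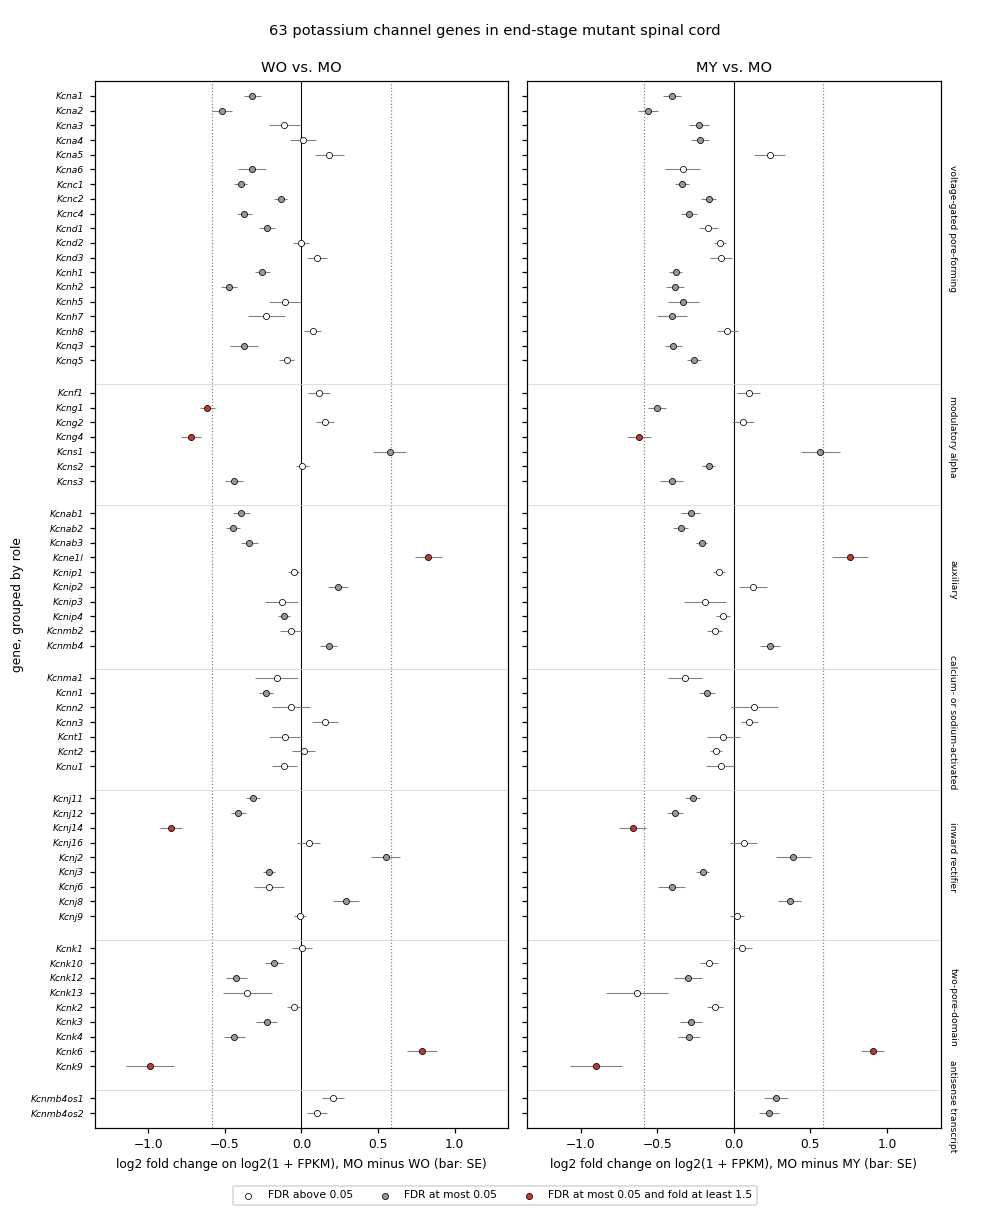
Log2 fold change of potassium channel genes on the log2(1 + FPKM) scale, with its standard error, in WO vs. MO (left) and MY vs. MO (right), grouped by role. Most points lie left of 0, and the red points mark genes that passed both thresholds.

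Voltage-gated pore-forming subunits were the largest group, with 23 genes, the prefixes Kcna, Kcnc, Kcnd, Kcnh and Kcnq among them. In WO vs. MO, 13 of the 23 fell (56.5%) and none rose, against 12.9% and 15% of all genes. The median log2 fold change was -0.22, and 13 had an unadjusted p below 0.05 by limma, against 6986 of all 18167 genes. In MY vs. MO, 16 fell (69.6%) and none rose, against 12.5% and 13.1% of all genes, with a median of -0.29. Summed over the 23 genes, the level was 535 ± 14.4 FPKM in WO (mean ± SD, n = 5) and 398 ± 18.1 FPKM in MO (n = 5), or 74.5% of WO.

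The Kcnc genes encode the fast delayed rectifiers of the Shaw type, which repolarize neurons that fire at high rates. *Kcnc1* was at 6.01, 6.14, 6.08, 5.99 and 6.08 in WO1 to WO5 and at 5.68, 5.59, 5.75, 5.63 and 5.67 in MO1 to MO5. In the young mice it was at 5.68, 6.02 and 6.10 in WY1 to WY3 and at 5.99, 5.98 and 6.04 in MY1 to MY3. The MO mice were below every WO and MY mouse, but WY1 lay within their range. *Kcnc1* fell by 0.40 (SE 0.04, FDR 8.12e-05) in WO vs. MO and by 0.34 (SE 0.04, FDR 0.00127) in MY vs. MO. *Kcnc4*, whose product inactivates rapidly, fell by 0.37 (FDR 0.000367) and 0.29 (FDR 0.00461), and every MO mouse was below every other mouse. *Kcnc2* fell by 0.14 (FDR 0.0329) and 0.16 (FDR 0.0418), and both calls were lost without MO5 (FDR 0.0722 and 0.0774).

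The Kcna genes encode Shaker-type subunits, of which *Kcna1* and *Kcna2* form the low-threshold channels beside the nodes of myelinated axons. Of the 6 measured, 3 fell in WO vs. MO (50%) and 4 in MY vs. MO (66.7%), against 12.9% and 12.5% of all genes. *Kcna2*, at chr3:107101146-107115005, plus strand of GRCm38, was at 5.66, 5.79, 5.97, 5.79 and 5.85 in WO1 to WO5 and at 5.31, 5.17, 5.20, 5.42 and 5.37 in MO1 to MO5. It was at 5.38, 6.01 and 5.76 in WY1 to WY3 and at 5.89, 5.80 and 5.87 in MY1 to MY3. All MO values were below the WO and MY values, with WY1 inside the MO range. *Kcna2* fell by 0.52 (SE 0.07, FDR 0.000293) in WO vs. MO and by 0.56 (SE 0.07, FDR 0.000756) in MY vs. MO, in each case short of the fold threshold. *Kcna1* was at 6.25, 6.19, 6.29, 6.12 and 6.30 in the WO mice and at 6.01, 5.86, 5.76, 5.95 and 5.96 in the MO mice, again without overlap. It fell by 0.32 (FDR 0.00144) and, against MY, by 0.41 (FDR 0.00196).

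*Kcna6* passed the FDR in WO vs. MO and not in MY vs. MO (log2 fold change -0.32, FDR 0.0229; -0.33, FDR 0.0642 in MY vs. MO), although its MO mice were below all 11 others. The low members *Kcna3* (mean 1.29) and *Kcna4* (1.59) fell in MY vs. MO by 0.23 (FDR 0.0307, and 0.0542 without MO5) and 0.22 (FDR 0.0252). In WO vs. MO they were at -0.11 and 0.01 (FDR 0.48 and 0.948). *Kcna5* had positive fold changes of 0.18 and 0.23, neither past the FDR (0.188 and 0.131). Here and below, the difference between these 2 comparisons was not tested for any gene, and both share the MO mice.

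The Kcnh genes encode the ether-a-go-go family. *Kcnh2*, the gene of the ERG channel that also repolarizes the heart, lies at chr5:24319589-24351604, minus strand. Its level was 5.47, 5.44, 5.39, 5.52 and 5.56 in WO1 to WO5 and 5.05, 4.85, 5.00, 4.98 and 5.12 in MO1 to MO5. The WY mice were at 5.09, 5.26 and 5.36 and the MY mice at 5.40, 5.37 and 5.39. MO values were below WO and MY values throughout, and WY1 was the only other mouse in their range. *Kcnh2* fell by 0.47 (SE 0.05, FDR 0.000126) in WO vs. MO and by 0.38 (SE 0.06, FDR 0.00242) in MY vs. MO. *Kcnh1* fell by 0.26 (FDR 0.0024) and 0.38 (FDR 0.000716) in the same comparisons. *Kcnh5* and *Kcnh7* fell in MY vs. MO by 0.33 (FDR 0.0418) and 0.40 (FDR 0.0184), and were at -0.11 (FDR 0.516) and -0.23 (FDR 0.199) in WO vs. MO. The least abundant member, *Kcnh8*, had a log2 fold change of 0.07 (FDR 0.396) in WO vs. MO.

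The Kcnq genes encode the channels of the M-current, which is closed by muscarinic receptors and limits repetitive firing. *Kcnq3* was at 2.78, 3.05, 3.34, 3.22 and 3.14 in WO1 to WO5 and at 2.76, 2.68, 2.66, 2.69 and 2.86 in MO1 to MO5. It fell by 0.37 (SE 0.09, FDR 0.0124), but WO1 lay within the MO range. Against MY it fell by 0.39 (FDR 0.00182). *Kcnq5* fell in MY vs. MO (-0.26, FDR 0.00502) and was at -0.10 (FDR 0.166) in WO vs. MO.

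Kcnd subunits carry the rapidly inactivating A-type current of dendrites. In WO vs. MO, 1 of the 3 measured fell and none rose, against 12.9% and 15% of all genes. *Kcnd2* was at 3.93, 4.19, 4.09, 4.02 and 4.02 in WO1 to WO5 and 4.11, 4.03, 3.99, 4.09 and 4.03 in MO1 to MO5. These ranges overlap, with a log2 fold change of -0.0030 (SE 0.05, FDR 0.978). *Kcnd3* was at 0.10 (FDR 0.31), and *Kcnd1* fell by 0.22 (FDR 0.00785) in WO vs. MO. In MY vs. MO *Kcnd1* was at -0.17 (FDR 0.0903, and 0.033 without MO5).

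**Figure D2:**
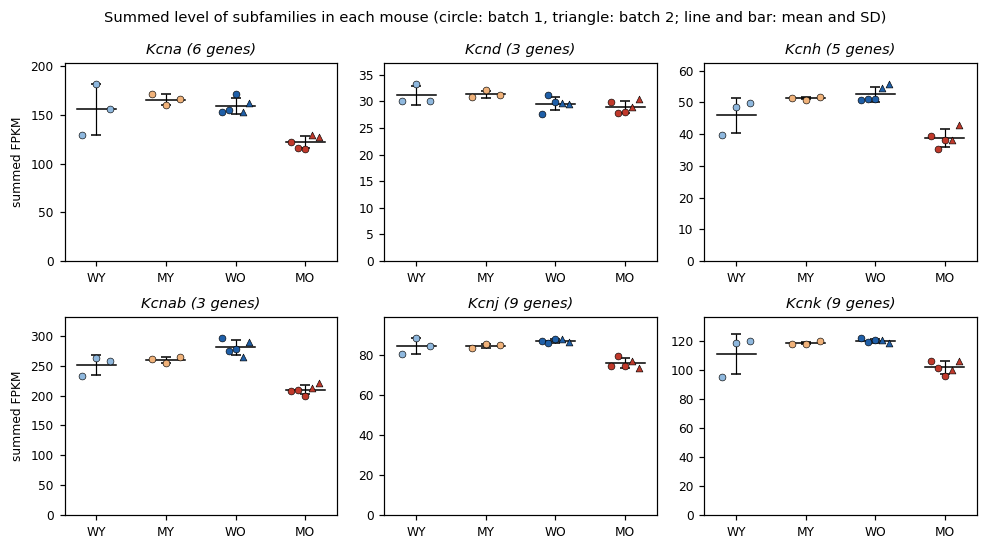
Summed level of 6 Kcn subfamilies, in FPKM recalculated from the log2 values, in each mouse, with the mean and SD of each group (WY and MY n = 3, WO and MO n = 5). The MO mice lie below all others for Kcnab and Kcnj, whereas the Kcnd sums of WO and MO overlap.

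Modulatory subunits do not form channels on their own and shift the gating of other voltage-gated channels. Of 7 measured, 3 fell (42.9%) and 1 rose (14.3%) in WO vs. MO, against 12.9% and 15% of all genes. As lower in MO, 2 passed both thresholds, against 0.517% of all genes. *Kcng4*, the most abundant of them (mean 4.83) and located at chr8:119623854-119635680, minus strand, was at 5.12, 4.98, 5.12, 5.13 and 5.19 in WO1 to WO5 and 4.27, 4.31, 4.36, 4.63 and 4.36 in MO1 to MO5. The young mice were at 4.68, 5.09 and 5.06 (WY1 to WY3) and 4.99, 5.06 and 4.95 (MY1 to MY3). Every MO mouse was below every other mouse, with MO4 the highest of the MO mice. *Kcng4* fell by 0.72 (SE 0.07, FDR 4.03e-05) in WO vs. MO and by 0.62 (SE 0.08, FDR 0.00112) in MY vs. MO.

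*Kcng1*, at chr2:168260117-168281736, minus strand, had low levels of 1.58, 1.49, 1.60, 1.58 and 1.48 in WO1 to WO5 and 0.81, 1.03, 0.88, 0.92 and 1.02 in MO1 to MO5. In the young mice it was at 0.70, 1.54 and 1.57 (WY) and 1.36, 1.46 and 1.46 (MY), so that WY1 lay below every MO mouse. It fell by 0.61 (SE 0.05, FDR 2.16e-05) in WO vs. MO, where the batch 2 mice alone gave -0.56, short of the fold threshold. Its MO mean in FPKM was 47.3% of WO, the lowest share of the 67 genes. Against MY it fell by 0.50 (FDR 0.000801). *Kcns3* also fell, by 0.44 (SE 0.06, FDR 0.000354) and 0.40 (FDR 0.0059), with all MO mice below the 11 others.

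*Kcns1* moved the other way. It lies at chr2:164163619-164171113, minus strand, and was at 1.89, 2.09, 1.86, 1.78 and 1.81 in WO1 to WO5 and 2.24, 2.38, 2.87, 2.39 and 2.43 in MO1 to MO5. The WY mice were at 2.05, 1.85 and 2.02 and the MY mice at 1.90, 1.86 and 1.93. All MO mice were above the 11 others, and MO3 was the highest. *Kcns1* rose by 0.58 (SE 0.11, FDR 0.00274) in WO vs. MO and by 0.56 (SE 0.13, FDR 0.0126) in MY vs. MO, just short of the fold threshold in both. *Kcnf1* (log2 fold change 0.11), *Kcng2* (0.15) and *Kcns2* (0.01) did not pass in WO vs. MO, and *Kcns2* fell by 0.16 (FDR 0.0259) in MY vs. MO.

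Among 10 auxiliary subunits, 4 fell (40%) and 3 rose (30%) in WO vs. MO, against 12.9% and 15% of all genes. All 3 Kcnab genes, whose products bind Shaker-type channels inside the cell, fell. *Kcnab2* was at 7.48, 7.33, 7.39, 7.34 and 7.45 in WO1 to WO5 and 6.93, 6.90, 6.90, 6.98 and 7.06 in MO1 to MO5. In WY it was at 7.13, 7.30 and 7.29 and in MY at 7.30, 7.27 and 7.33. The MO mice were below all others. *Kcnab2* fell by 0.45 (SE 0.05, FDR 6.74e-05), *Kcnab1* by 0.39 (FDR 0.000506) and *Kcnab3* by 0.34 (FDR 0.00105) in WO vs. MO. In MY vs. MO they fell by 0.35, 0.28 and 0.21 (FDR 0.00156, 0.0123 and 0.00505). Their summed level was 280 ± 12.4 FPKM in WO and 210 ± 7.84 FPKM in MO. *Kcnab2* shares exons with *Gm16334* on its strand, and *Kcnab1* and *Kcnab3* overlap opposite-strand genes. Although the libraries were made with a stranded kit, whether the counting used the strand is not given in the sources used here.

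*Kcne1l* encodes a small membrane-spanning subunit that inhibits several voltage-gated channels. It lies at chrX:142304752-142306294, minus strand, and had the largest rise of the 67 genes in WO vs. MO on the log2(1 + FPKM) scale. In FPKM its MO mean was 186% of WO, below the 250% of *Kcnk6*. Its level was 3.60, 3.57, 3.40, 3.50 and 3.51 in WO1 to WO5 and 4.02, 4.50, 4.52, 4.33 and 4.35 in MO1 to MO5. The WY mice were at 4.06, 3.86 and 3.93 and the MY mice at 3.51, 3.75 and 3.49. MO values were above all WO and MY values, while WY1 exceeded MO1. *Kcne1l* rose by 0.83 (SE 0.09, FDR 9.14e-05) in WO vs. MO and by 0.76 (SE 0.12, FDR 0.00261) in MY vs. MO. The WO vs. MO differences within batch 1 and batch 2 were 0.82 and 0.83. Since the gene is X-linked and MO5 had *Xist* RNA, the fit was repeated without MO5, and the change was 0.82 (FDR 0.0004).

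The Kcnip subunits are calcium sensors that accompany Kcnd channels. In WO vs. MO, 1 of the 4 measured fell and 1 rose, against 12.9% and 15% of all genes. *Kcnip1* was at 4.91 ± 0.05 in WO and 4.86 ± 0.04 in MO (-0.05, FDR 0.334), *Kcnip4* fell by 0.11 (FDR 0.0437) and *Kcnip2* rose by 0.24 (FDR 0.0199). Without MO5 the FDR of *Kcnip4* was 0.0931. Neither change passed in MY vs. MO. *Kcnip3* was at -0.13 (FDR 0.43), with values of MO mice on both sides of all others. *Kcnmb4*, the neuronal beta subunit of the large-conductance calcium-activated channel, rose by 0.18 (SE 0.05, FDR 0.0298) and 0.24 (SE 0.07, FDR 0.0303). Its antisense neighbors *Kcnmb4os1* and *Kcnmb4os2* had log2 fold changes of 0.21 (FDR 0.0541) and 0.10 (FDR 0.293) in WO vs. MO and rose by 0.28 and 0.23 in MY vs. MO (FDR 0.0314 and 0.0326). Without MO5 the call of *Kcnmb4os1* was lost (FDR 0.0605). Their exons overlap those of *Kcnmb4* on the other strand, so the 3 values may share reads. *Kcnmb2*, another beta subunit, was at -0.07 (FDR 0.525).

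Of 7 calcium- or sodium-activated pore-forming genes, 1 fell (14.3%) and none rose in WO vs. MO, against 12.9% and 15% of all genes. The share that fell was thus close to that of all genes. By limma, 1 of the 7 had an unadjusted p below 0.05. *Kcnma1*, the large-conductance channel that *Kcnmb4* modulates, was at 2.64, 2.98, 3.40, 3.08 and 3.00 in WO1 to WO5 and 3.15, 2.78, 2.68, 2.67 and 3.00 in MO1 to MO5. *Kcnt1*, a sodium-activated channel and the most abundant of the 7, was at 5.09, 5.03, 4.72, 5.04 and 5.19 in WO and 5.16, 4.68, 4.96, 4.73 and 5.01 in MO. Both pairs of groups overlapped, with log2 fold changes of -0.16 (SE 0.14, FDR 0.435) and -0.11 (SE 0.11, FDR 0.52). The small-conductance channel gene *Kcnn2*, which shapes the afterhyperpolarization of motor neurons, had a log2 fold change of -0.07 (FDR 0.759). Its batches gave opposite signs, 0.08 in batch 1 and -0.28 in batch 2. *Kcnn1* was the gene that fell, by 0.23 (SE 0.05, FDR 0.00339), and by 0.18 (FDR 0.0366) against MY, with all MO mice below the others. *Kcnn3* (0.15, FDR 0.231) and *Kcnt2* (0.01, FDR 0.922) did not pass. *Kcnu1*, known from sperm, was near the mean limit of 1, at 1.10 ± 0.11 and 0.99 ± 0.16.

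Inward rectifiers numbered 9. In WO vs. MO, 4 fell (44.4%) and 2 rose (22.2%), against 12.9% and 15% of all genes. In MY vs. MO, 5 fell (55.6%) and 2 rose (22.2%), against 12.5% and 13.1% of all genes. The largest change was that of *Kcnj14*, a strong inward rectifier described in cranial motor neurons, at chr7:45816460-45824782, minus strand. It was at 4.14, 3.92, 3.94, 4.04 and 3.95 in WO1 to WO5 and 3.17, 3.10, 2.94, 3.34 and 3.19 in MO1 to MO5. In the young mice it was at 3.69, 3.73 and 3.77 (WY) and 3.71, 3.88 and 3.83 (MY). Each MO mouse was below each of the 11 others, WY1 included. *Kcnj14* fell by 0.85 (SE 0.07, FDR 2.69e-05) in WO vs. MO, to 52.7% of the WO mean in FPKM, and by 0.66 (SE 0.09, FDR 0.00117) in MY vs. MO.

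*Kcnj12* fell by 0.41 (FDR 0.000207), *Kcnj11*, the pore of the ATP-sensitive channel, by 0.32 (FDR 0.000448), and *Kcnj3*, a subunit of the G protein-gated channel, by 0.21 (FDR 0.00324) in WO vs. MO. In all 3 genes the MO mice were below the 11 others. *Kcnj6*, another G protein-gated subunit, fell in MY vs. MO (-0.41, FDR 0.00992) and was at -0.21 (FDR 0.138) in WO vs. MO, and *Kcnj9* passed in neither. The strong rectifier *Kcnj2* rose. It was at 1.83, 1.94, 1.81, 1.82 and 1.74 in WO1 to WO5 and 2.05, 2.57, 2.56, 2.42 and 2.29 in MO1 to MO5, a change of 0.55 (SE 0.09, FDR 0.00147). The groups did not overlap, with MO1 nearest to WO. Against MY it rose by 0.39 (FDR 0.0372, and 0.0505 without MO5). *Kcnj8*, the vascular partner of sulfonylurea receptors, rose by 0.29 (FDR 0.0296), a call lost without MO5 (FDR 0.0668). Against MY it rose by 0.36 (FDR 0.00824, and 0.0134 without MO5). *Kcnj16*, the most abundant inward rectifier reported here, was at 4.45 ± 0.06 in WO and 4.49 ± 0.17 in MO (FDR 0.7).

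Tandem pore domain channels, with 2 pore loops in each subunit, carry leak currents that anesthetics, acid and stretch modulate. Of 9 measured, 5 fell (55.6%) and 1 rose (11.1%) in WO vs. MO, against 12.9% and 15% of all genes. *Kcnk9* had the largest fall of the 67 genes on the log2(1 + FPKM) scale. Its product is an acid-sensitive leak channel of motor neurons and other large neurons. *Kcnk9*, at chr15:72501089-72546340, minus strand, was at 4.23, 4.60, 4.76, 4.70 and 4.76 in WO1 to WO5 and 3.80, 3.38, 3.60, 3.25 and 4.09 in MO1 to MO5. The young mice were at 2.88, 4.66 and 4.52 (WY) and 4.50, 4.51 and 4.56 (MY). MO and WO did not overlap, with MO5 and WO1 nearest to each other, and WY1 was the lowest of the 16 mice. *Kcnk9* fell by 0.99 (SE 0.16, FDR 0.00104) in WO vs. MO, to 48.9% of the WO mean in FPKM, and by 0.90 (SE 0.17, FDR 0.00635) in MY vs. MO. With the batch 2 mice alone the WO vs. MO change was -1.06 (FDR 0.0791). The related acid-sensitive gene *Kcnk3* fell by 0.23 (FDR 0.028).

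*Kcnk6* rose. It lies at chr7:29221926-29232515, minus strand, and was at 1.17, 1.05, 0.98, 0.78 and 0.66 in WO1 to WO5 and 1.85, 1.73, 1.76, 1.496 and 1.74 in MO1 to MO5. In WY it was at 1.01, 0.86 and 0.84 and in MY at 0.79, 0.80 and 0.84. All MO mice were above the 11 others, of which WO4 and WO5 were the lowest. The change was 0.79 (SE 0.10, FDR 0.000243) in WO vs. MO and 0.91 (SE 0.07, FDR 0.000269) in MY vs. MO, but as the gene entered through its MO level, its place among the 67 supports nothing on its own.

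*Kcnk4*, a stretch-activated channel found at nodes of Ranvier, fell by 0.44 (SE 0.07, FDR 0.00102) and *Kcnk12* by 0.42 (SE 0.07, FDR 0.00119) in WO vs. MO, and both fell in MY vs. MO (FDR 0.0183 and 0.0422). Without MO5 the MY vs. MO call of *Kcnk12* was lost (FDR 0.0781). Exons of *Kcnk4* overlap *Catsperz* on the same strand. *Kcnk1*, the most abundant tandem pore gene, was at 5.94, 5.82, 5.72, 5.79 and 5.69 in WO1 to WO5 and 5.93, 5.88, 5.66, 5.78 and 5.73 in MO1 to MO5, with a log2 fold change of 0.0034 (SE 0.06, FDR 0.979). *Kcnk13*, a channel of microglia, was at 3.54 ± 0.08 in WO and 3.18 ± 0.40 in MO and passed in neither comparison (FDR 0.131 and 0.0511). The stretch- and temperature-sensitive *Kcnk2* was at -0.05 (FDR 0.447) and its relative *Kcnk10* fell by 0.18 (FDR 0.0379) in WO vs. MO.

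**Figure D3:**
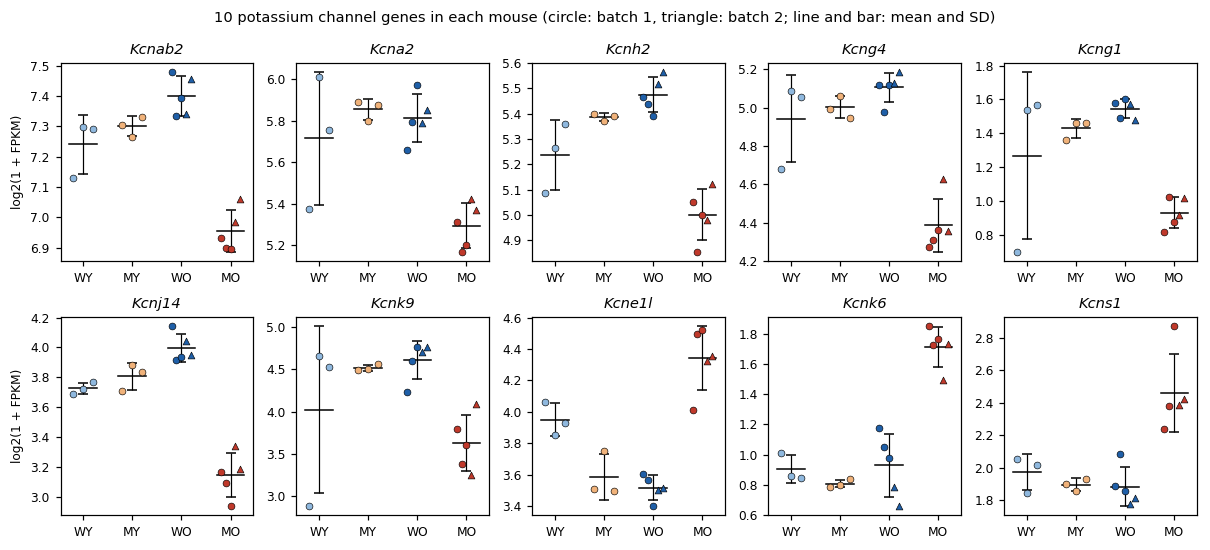
Level of 10 potassium channel genes in each mouse on the log2(1 + FPKM) scale, with the mean and SD of each group (WY and MY n = 3, WO and MO n = 5). The MO mice are lowest as a group for *Kcnab2*, *Kcna2*, *Kcnh2*, *Kcng4*, *Kcng1*, *Kcnj14* and *Kcnk9* and highest for *Kcne1l*, *Kcnk6* and *Kcns1*, and the low WY point of *Kcnk9* at 2.88 is WY1.

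The change from the presymptomatic to the end stage in mutant mice (MY vs. MO) shares the MO mice with the comparison above. Both thresholds were passed by 4 genes lower in MO (background 0.787%), *Kcnk9*, *Kcnj14* and *Kcng4* among them, and by *Kcnk6* and *Kcne1l*, higher in MO (background 4.11%). With the FDR alone, 33 of the 67 fell and 8 rose, against 12.5% and 13.1% of all genes. Among the genes with a mean of at least 1, 16.2% fell and 14.2% rose. The median log2 fold change of the 67 was -0.19, against 0.0047 over all genes. Without MY3, 21 fell and 4 rose, and in the test against a fold of 1.2, 5 fell and 2 rose, with *Kcnk9* at an FDR of 0.0602. *Kcng4* did not reach the fold threshold (-0.58) once a trend with transcript length was removed, an alternative chosen after seeing the data. All MY mice belong to batch 1. With the batch 1 mice alone, *Kcnj14* changed by -0.74 (FDR 0.00133), *Kcnk9* by -0.93 (FDR 0.00171) and *Kcng4* by -0.69 (FDR 0.000368). *Kcnk6* changed by 0.97 (FDR 0.000116) and *Kcne1l* by 0.76 (FDR 0.0137).

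Without MO5, 28 of the 67 fell and 6 rose with the FDR alone in WO vs. MO, and 31 fell and 6 rose in MY vs. MO. The genes past both thresholds kept their direction and an FDR of at most 0.05. In WO vs. MO, *Kcnk9* was then at -1.11 (FDR 0.000448), *Kcnj14* at -0.86 (FDR 0.000123), *Kcng4* at -0.71 (FDR 0.000209), *Kcng1* at -0.64 (FDR 9.24e-05) and *Kcnk6* at 0.78 (FDR 0.000922). In MY vs. MO they were -1.01 for *Kcnk9*, -0.67 for *Kcnj14*, -0.61 for *Kcng4*, 0.90 for *Kcnk6* and 0.76 for *Kcne1l*. *Kcns1*, at 0.59 without MO5, then also passed the fold threshold in WO vs. MO. Within batches, the WO vs. MO differences in batch 1 and batch 2 were -0.93 and -0.73 for *Kcnj14*, -0.94 and -1.06 for *Kcnk9*, -0.76 and -0.67 for *Kcng4* and 0.71 and 0.89 for *Kcnk6*.

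Age in wild-type profilin1 mice (WY vs. WO) gave no potassium channel gene past both thresholds by limma, with a background of 0.253%, and 12 of the 67 had an unadjusted p below 0.05, against 2447 of all 18167 genes. With the FDR alone, *Kcne1l* fell, by 0.43 (SE 0.06, FDR 0.0241), against 0.892% of all genes that fell and 0.231% that rose, and none rose. That call was lost without WO2, WO3, WO5, WY1 or WY3, each leaving 0 genes, and with the batch 1 mice alone. In mutant mice the same gene rose from 50 days to end stage, as given above, where age and disease stage cannot be told apart. *Kcnj14* was higher in WO by 0.27 (FDR 0.0833) and *Kcnk13* was lower, at -0.26 (FDR 0.0687), both with an FDR above 0.05.

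Genotype at 50 days (WY vs. MY) gave no gene by either rule in limma, with a background of 0.0055% for the FDR alone, and 2 of the 67, *Kcne1l* and *Kcnk3*, had an unadjusted p below 0.05, against 1301 of all 18167 genes. *Kcne1l* was at 3.95 ± 0.11 in WY and 3.58 ± 0.14 in MY (n = 3 each), a difference of -0.36 (SE 0.09, FDR 0.564). *Kcnk3* was at 3.49 ± 0.06 and 3.72 ± 0.08, a difference of 0.23 (SE 0.06, FDR 0.571). For *Kcnk9* and *Kcng1*, the SD of the WY mice was 0.99 and 0.49, against 0.04 and 0.06 in MY, as WY1 was far below WY2 and WY3.

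Whether the change from young to old mice differed between the genotypes was tested as (MO - MY) - (WO - WY) on all 16 mice. As the MO mice are also at end stage, age and disease cannot be told apart in this contrast. Of the 67 genes, 7 were negative past both thresholds (background 0.963%) and 3 positive (background 4.65%). With the FDR alone, 23 were negative and 5 positive, against 1307 and 1903 of all 18167 genes. Among the 13530 genes with a mean of at least 1, 1249 were negative and 1513 positive. For the 67, the counts were 20 and 4 without WY1, and 23 and 4 without MO5. *Kcnk9* had the largest negative difference, -1.49 (SE 0.44, FDR 0.0302), followed among the negative genes by *Kcnj14* at -0.93 (SE 0.11, FDR 7.01e-05). *Kcng4* (-0.78, FDR 0.000875), *Kcng1* (-0.77, FDR 0.0167), *Kcna2* (-0.66, FDR 0.00945) and *Kcnh2* (-0.62, FDR 0.000368) were also negative. *Kcne1l* (1.19, SE 0.14, FDR 8.04e-05), *Kcnk6* (0.88, FDR 0.000709) and *Kcns1* (0.65, FDR 0.0105) were positive.

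These values rest in part on WY1. Without it, *Kcnk9* was at -0.92 (FDR 0.0261), *Kcng4* at -0.65 and *Kcnj14* at -0.91, and these genes still passed both thresholds, as did *Kcne1l* (1.13), *Kcnk6* (0.83) and *Kcns1* (0.61). *Kcna2* (-0.49), *Kcng1* (-0.49) and *Kcnh2* (-0.55) kept an FDR of at most 0.05 and no longer reached the fold threshold. *Kcnk9* also missed the FDR without MO2 (0.0510), WO5 (0.0517), MY1 (0.0627), MY2 (0.0586) or MY3 (0.0668), and with the batch 1 mice alone (0.106). *Kcns1* was at 0.55 without MO3, below the fold threshold. In the test against a fold of 1.2, 6 of the 10 genes were left, without *Kcnk9*, *Kcns1*, *Kcng1* and *Kcna2*, and with the batch 1 mice alone *Kcng1* (FDR 0.0697) and *Kcns1* (FDR 0.0595) were lost. *Kcns1* (0.58) fell short of the fold threshold under quantile normalization, and *Kcna2* (-0.57) did so with the transcript length trend removed, which was chosen after seeing the data.

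Genes that work with these channels were read from lists. Of all genes, 12.9% fell and 15% rose in WO vs. MO, and 12.5% and 13.1% did so in MY vs. MO. Of 22 measured genes for partners and anchors of voltage-gated channels, 14 fell (63.6%) and 1 rose (4.55%) in WO vs. MO. In MY vs. MO, 16 fell (72.7%) and 1 rose (4.55%). The most abundant was the calmodulin gene *Calm2* (mean 9.91), at -0.05 (FDR 0.654) in WO vs. MO. *Lgi4*, a secreted glial ligand, rose by 0.68 (FDR 2.34e-05) and was the member past both thresholds there, and its relative *Lgi2* fell by 0.59 (FDR 0.000584) in MY vs. MO. *Cntnap1* and *Cntn2*, which organize the axonal membrane around the node, fell by 0.47 and 0.43 (FDR 0.000525 and 7.45e-05).

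HCN channels are hyperpolarization-activated relatives of potassium channels. Of 5 genes for them and their subunit *Pex5l*, 3 fell and none rose in WO vs. MO, against 12.9% and 15% of all genes. The most abundant, *Hcn2* (7.04 ± 0.07 in WO, 6.43 ± 0.22 in MO), fell by 0.61 (FDR 0.000847) and passed both thresholds. Both sulfonylurea receptor genes, *Abcc8* (mean 2.90, -0.31, FDR 0.00292) and *Abcc9* (-0.31, FDR 0.0053), fell. Of 4 genes for gamma subunits of the large-conductance channel, 1 rose and 1 fell (25% each). The only one with a mean of at least 1, *Lrrc55* (mean 2.71), was the one that rose, by 0.31 (FDR 0.0199). Of 12 genes for G proteins and regulators of G protein-gated channels, 4 fell (33.3%) and none rose. The most abundant of them, *Gnb1* (mean 7.41), was at -0.0019 (FDR 0.979).

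Of 9 genes for the sodium-potassium pump and its regulators, 4 fell (44.4%) and 2 rose (22.2%) in WO vs. MO. Of all genes, 12.9% fell and 15% rose. The regulator *Fxyd1* rose by 1.13 (FDR 1.46e-05) and passed both thresholds, and the most abundant gene, *Atp1b1* (mean 9.65), fell by 0.31 (FDR 0.000527). Of 12 genes for chloride cotransporters and their kinases, 8 fell (66.7%) and 2 rose (16.7%). The most abundant was the neuronal potassium-chloride exporter *Slc12a5* (mean 6.55), which fell by 0.45 (FDR 0.000377). None of the 12 passed both thresholds.

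Cell type markers also differed between WO and MO, where 12.9% of all genes fell and 15% rose. In MY vs. MO, 12.5% and 13.1% of all genes did so. Of 7 motor neuron markers, 5 fell and 0 rose in WO vs. MO, and *Chat*, the acetylcholine-synthesizing enzyme, fell past both thresholds by 0.67 (FDR 3.13e-05). The most abundant, *Prph* (mean 5.81), was at -0.10 (FDR 0.529). The summed level of the 7 was 123 to 151 FPKM in the WO mice and 88 to 115 FPKM in the MO mice, without overlap. Of 8 pan-neuronal markers, 6 fell and 0 rose, with *Nefl*, *Nefm* and *Nefh*, the neurofilament genes, past both thresholds (-0.75, -0.70 and -0.74). Their sum was 3988 to 4596 FPKM in WO and 2754 to 3352 FPKM in MO, the most abundant being *Snap25*. Of 5 inhibitory interneuron markers, 2 fell and 0 rose, with sums of 327 to 369 and 253 to 317 FPKM. The glycine transporter gene *Slc6a5* passed both thresholds (-0.78, FDR 0.00224), and the most abundant, *Pvalb* (mean 6.88), did not change past the FDR (0.812).

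Microglial markers rose, 7 of 8 in WO vs. MO, and summed to 128 to 175 FPKM in WO and 362 to 553 FPKM in MO. *Cd68* (3.22) and *Aif1* (1.75) rose past both thresholds, and *P2ry12* was at 0.10 (FDR 0.623). Of 6 astrocyte markers 5 rose, with sums of 1149 to 1383 and 2587 to 3490 FPKM, led by *Gfap* (1.60), *Aqp4* (0.83) and *Aldh1l1* (0.69). Of 6 oligodendrocyte markers 2 fell and none rose in WO vs. MO, and 4 fell in MY vs. MO. *Mog* fell by 0.93 and *Cnp* by 0.60 in MY vs. MO, and both also fell with age in wild-type mice, by 0.77 (FDR 0.0178) and 0.53 (FDR 0.0418) in WY vs. WO. The sum of that list, 5021 to 23676 FPKM in WO and 6894 to 21859 FPKM in MO, is set by its most abundant gene, *Mbp*, which was at 5.36 in WO4 and between 12.42 and 14.22 in the other WO mice. In the other batch 2 mice, WO5, MO4 and MO5, the sum was 23676, 21859 and 21234 FPKM. In the old batch 1 mice it was 6894 to 10006 FPKM, and the cause of this difference between batches was not tested.

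Of 5 endothelial markers, 4 fell and 0 rose in WO vs. MO, with sums of 42 to 62.3 and 30.7 to 43.3 FPKM. *Slco1c1* passed both thresholds (-0.61), while the most abundant, *Cldn5*, was at -0.40 (FDR 0.115). In MY vs. MO none of the 5 passed the FDR by limma, with 2 at an unadjusted p below 0.05. The mean sums there were 41.9 FPKM in MY and 39.3 FPKM in MO. Of 6 mural cell markers, 1 fell and 1 rose in WO vs. MO, with sums of 47.2 to 65.5 and 34.6 to 59.7 FPKM. *Anpep*, at 0.41 ± 0.11 in WO, rose past both thresholds (0.70), and the most abundant was *Vtn* (-0.27, FDR 0.361). Oligodendrocyte precursor, ependymal and meningeal fibroblast markers (3, 4 and 5 genes) had no call in WO vs. MO by limma, with 1, 0 and 0 at an unadjusted p below 0.05. *Gpr17*, the most abundant precursor gene, fell by 0.74 (FDR 0.039) in MY vs. MO and by 1.07 (FDR 0.0129) in WY vs. WO. The most abundant ependymal and fibroblast genes were *Foxj1* (-0.02) and *Dcn* (0.03). These lists summed to 20.9, 23.5 and 16.8 FPKM in WO and 25.9, 22.5 and 17.3 FPKM in MO.

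Of 5 Schwann cell markers, *Egr2* rose (0.82), the defining gene *Prx* had a mean of 0.21, and the most abundant was *Pmp22* (mean 6.35, -0.01). Of 6 sensory neuron markers, *Calca*, which motor neurons also make and which was the most abundant, rose by 1.38 (FDR 0.00102) and *Avil* by 0.36 (FDR 0.00239). *Scn10a*, *Scn11a*, *Trpv1* and *Prdm12* had means of 0.01, 0.02, 0.05 and 0.03. All 5 skeletal muscle markers had means under 1, the highest that of *Acta1* (0.59), which fell by 0.25 (FDR 0.0455). Of 4 measured blood genes none passed by limma, with 1 at an unadjusted p below 0.05, and the most abundant, *Hba-a1*, was at -0.89 (FDR 0.142). The sums in WO and MO were 77.4 and 78.8 FPKM for Schwann cells, 43.8 and 120 FPKM for sensory neurons, 0.897 and 0.681 FPKM for muscle and 79 and 48.1 FPKM for blood.

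The study's own lists are mouse orthologues of human marker genes that had been published earlier. Their counts in WO vs. MO, where 12.9% of all genes fell and 15% rose, are given with Kcn genes set aside. Of 68 neuronal genes 29 fell and 7 rose, of 5 motor neuron genes 3 fell and 0 rose, of 60 astrocyte genes 7 fell and 29 rose, of 35 oligodendrocyte genes 13 fell and 4 rose, and of 5 microglial genes all 5 rose. The most abundant were *Snap25*, *Chat*, *Aldoc*, *Mbp* and *Cx3cr1*. Their sums in WO and MO were 6713 and 5260 FPKM, 22.4 and 14.8 FPKM, 3769 and 4314 FPKM, 6877 to 25475 and 8316 to 24123 FPKM (lowest to highest mouse), and 19.7 to 25.8 and 79.6 to 180 FPKM (likewise). The oligodendrocyte sum is again set by *Mbp*, so WO4 was the lowest mouse and no direction is read from it. Within batch 1 it was 11959, 11011 and 11151 in WO1 to WO3 and 8316, 9111 and 9399 in MO1 to MO3. The neuronal list also holds Kcn genes, *Kcnc2* and *Kcnf1* among them. The part of any of these cell types in the potassium channel results was not tested.

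The promoters of genes that moved together were read from RefSeq on build GRCm38.p6, which held 70 start sites of 47 of the 67 genes. In the 250 bases before each start, both strands were searched for the GC box (letters GGGCGG), the CCAAT box, the TATA box (letters TATAAA) and the E-box (letters CACGTG), where matches of different motifs may share end bases. They were held by 44.3%, 31.4%, 2.86% and 4.29% of the promoters of the 67 genes, and by 32.7%, 33.8%, 12.4% and 6.02% of all promoters. Of the 29 promoters of 18 genes that fell in WO vs. MO, 44.8% held the GC box, as did 5 of the 6 promoters of genes that rose. A match describes letters and shows no binding.

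Printed here are the 100 bases before the start of *Kcng4*, *Kcnk12* and *Kcnk4*, which fell, and of *Kcne1l*, *Kcns1* and *Kcnj2*, which rose, to set both directions side by side. They are written 5' to 3' in the direction of the gene, with any of the 4 motifs, on either strand, in capitals. The windows are chr8:119635681-119635780 (minus strand) for *Kcng4*, chr17:87797995-87798094 (minus strand) for *Kcnk12*, chr19:6934516-6934615 (minus strand) for *Kcnk4*, chrX:142306295-142306394 (minus strand) for *Kcne1l*, chr2:164171114-164171213 (minus strand) for *Kcns1* and chr11:111066064-111066163 (plus strand) for *Kcnj2*. Within these windows, *Kcnk4* and *Kcne1l* each hold a GC box and *Kcnj2* an E-box, a CCAAT box on the other strand and a GC box, while the other 3 hold none of the 4 motifs.
Kcng4: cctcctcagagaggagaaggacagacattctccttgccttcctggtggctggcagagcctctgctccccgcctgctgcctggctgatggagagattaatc
Kcnk12: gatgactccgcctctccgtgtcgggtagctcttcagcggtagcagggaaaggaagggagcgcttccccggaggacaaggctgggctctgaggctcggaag
Kcnk4: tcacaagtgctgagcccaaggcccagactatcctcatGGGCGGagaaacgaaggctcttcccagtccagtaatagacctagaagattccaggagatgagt
Kcne1l: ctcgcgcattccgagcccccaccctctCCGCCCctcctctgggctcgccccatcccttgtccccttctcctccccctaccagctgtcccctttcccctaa
Kcns1: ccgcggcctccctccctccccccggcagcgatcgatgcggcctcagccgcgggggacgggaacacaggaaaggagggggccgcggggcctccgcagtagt
Kcnj2: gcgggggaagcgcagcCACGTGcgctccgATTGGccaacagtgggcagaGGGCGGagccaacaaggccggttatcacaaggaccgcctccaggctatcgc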

How the data were processed

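Deposited log2 values were used unchanged. The authors trimmed reads (Trimmomatic), aligned them (TopHat, mm10), estimated FPKM per gene (Cufflinks), took log2(1 + FPKM) and adjusted it for library batch (ComBat). Versions and ComBat covariates are not given in the sources used here. In the table, 915 values were below 0 and 0 exactly 0, and no value of the 67 genes was below 0. Depth per mouse was not used here, depth behind a single gene is unknown, and only the spread between mice gives the precision.

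Differences were fitted over all 18167 genes with limma 3.58.1 (lmFit and eBayes, 2-sided) in R 4.3.3, each comparison on its own mice, and the interaction on 16 mice. FDR is Benjamini-Hochberg over all genes. Python 3.11.15, pandas 2.3.3, NumPy 2.4.6 and matplotlib 3.10.9 were used, with GENCODE M21 and RefSeq. The fit was tested on simulated data. FPKM sums and percentages undo the log2.

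The members and gene lists were chosen with earlier results of these data known. Genes named by rule were those past both thresholds in any comparison, the most abundant of each subfamily, up to 5 further genes with the largest change per comparison, and the genes at the limit of the mean. Others were named to account for the group, after their values were seen. Some genes are not reported here.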

Additional observations from a re-analysis of the deposited data

Results flagged for a closer look

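The interaction (MO - MY) - (WO - WY), in which age and end-stage disease cannot be told apart, passed both thresholds for several genes, on the log2(1 + FPKM) scale. The differences were -1.49 for *Kcnk9*, -0.93 for *Kcnj14*, -0.78 for *Kcng4*, -0.77 for *Kcng1*, -0.66 for *Kcna2* and -0.62 for *Kcnh2*. They were 1.19 for *Kcne1l*, 0.88 for *Kcnk6* and 0.65 for *Kcns1*. Without WY1, *Kcnk9* was at -0.92, and *Kcng1* (-0.49), *Kcna2* (-0.49) and *Kcnh2* (-0.55) no longer passed both thresholds.

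In 64 gaps examined with Dixon's test at 95% confidence, in which about 5% of groups stand out by chance, 3 values in 2 mice, MO4 and MO1, lay far from the others of their group. The ratio of gap to range was 0.744 for *Kcng4* in MO4, the highest MO mouse, 0.768 for *Kcnip1* in MO4 and 0.757 for *Kcnu1* in MO1.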

How the results depend on the processing

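For changes of named genes with an FDR of at most 0.05 in the main fit, 1345 values under alternatives were counted, of which 1201 kept their direction and that FDR, 144 kept their direction alone and 0 reversed. As the alternatives reuse mice and values of the main fit, reversals were unlikely from the start. Changes that had not passed were not counted, and the sign of some, *Kcnd2* and *Kcnj16* in WO vs. MO among them, differed within a batch. The counts past both thresholds stayed between 6 and 9 in WO vs. MO and between 5 and 9 in MY vs. MO, and at 0 in WY vs. WO and WY vs. MY. With an FDR of at most 0.05 in WO vs. MO, 37 genes became 23 with the batch 1 mice alone and 13 with the batch 2 mice alone, where fewer mice enter, and 10 in limma's treat against a fold of 1.2, which asks for a minimum change. In MY vs. MO, 41 became 7 in treat and between 25 and 42 when each mouse was left out in turn, the lowest without MY3. The 1 gene of WY vs. WO became 0 with batch 1 alone, all groups in 1 fit, treat and the replicate block, and between 0 and 1 when each mouse was left out. The interaction's 10 genes past both thresholds became 6 in treat, and 7 to 13 when each mouse was left out. Beyond fewer mice or a minimum fold, the cause was not tested.

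With the replicate block, a term for the replicate number of the labels, 32 genes had an FDR of at most 0.05 in WO vs. MO, 31 in MY vs. MO and 0 in WY vs. WO. Mice with the same number had correlations from -0.21 to 0.09 in WO vs. MO, 0.09 to 0.18 in MY vs. MO, -0.13 to 0.38 in WY vs. WO and -0.20 to -0.02 in WY vs. MY. In MY vs. MO all 6 mice correlated best with their own number, a hint from the data and not the design. In no comparison was every pair over 0.1, so the numbers were not used as pairs. Batch as a term, a filter at a mean of 1, a pseudocount of 0.5, an intensity trend and quantile normalization were also tried. So were removal of a transcript length trend and of a GC content trend, chosen after seeing the data. Batch 2 alone could not be run with young mice, nor a batch term for WY vs. MY, whose mice are of batch 1. What read depth limits for a single gene is unknown.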
